A study of Mus musculus with 27 samples.

Results

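The Cyp3a genes encode the cytochrome P450 enzymes of subfamily 3A, and 8 of them are described here in the livers of mice fed chow or HF/HS, a diet high in fat and sucrose. The members are *Cyp3a11*, *Cyp3a13*, *Cyp3a16*, *Cyp3a25*, *Cyp3a41a*, *Cyp3a41b*, *Cyp3a44* and *Cyp3a59*, which are 8 of the 9 rows of the count table whose symbol begins with Cyp3a and 8 of its 23191 gene symbols. They were chosen by their measured difference between HF/HS and chow. Their diet values below, calls included, are therefore a description from which nothing is read. Tests of the members are read for genotype. The interaction of genotype with diet is built from the same diet values and is given with that limit. The remaining row, *Cyp3a57*, had between 1 and 14 counts in a mouse and did not pass the filter on low counts.

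Liver RNA of 27 male C57BL/6J mice was sequenced. Control littermates made up 7 mice on chow and 7 on HF/HS, and HGFAC-KO mice made up 6 on chow and 7 on HF/HS. The paper lists a LabDiet chow and an HF/HS diet from Research Diets. The diets may differ in more than fat and sucrose, and effects of such differences cannot be told apart here. HGFAC-KO mice carry a CRISPR/Cas9 deletion in every tissue that removes exon 2 and part of exon 1 of *Hgfac*, whose product is a liver protease that activates hepatocyte growth factor. The mice put on these diets are given as 8 weeks old, livers were taken after 4 weeks on the diet, and the labels tie no mouse to a litter or cage, so the p-values measure the spread between mice of a group.

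CYP3A enzymes sit in the endoplasmic reticulum of hepatocytes, take electrons from cytochrome P450 reductase, and oxidize steroids, bile acids and a large share of drugs and other foreign compounds. Their genes are textbook targets of the pregnane X receptor (PXR, *Nr1i2*) and the constitutive androstane receptor (CAR, *Nr1i3*), nuclear receptors that respond to such compounds. In mouse liver *Cyp3a11* is the main adult form, while *Cyp3a16*, *Cyp3a41a*, *Cyp3a41b* and *Cyp3a44* are known as forms of fetal or female liver.

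On HF/HS, 7 of the 8 genes were lower than on chow in both genotypes, by between 1.30 and 5.23 on the log2 scale, while *Cyp3a13* differed by 0.21. No member differed between HGFAC-KO and control mice past the threshold on either diet. Deposited counts per mouse summed to between 36056177 and 57298657, of which unnamed rows took 4.13% to 12.1%. Levels are in CPM, counts scaled to the sum of a mouse's counts on named genes after TMM scaling, which adjusts libraries for composition. On chow *Hgfac* was at 201 ± 13.1 CPM in 7 controls and at 75.5 ± 8.13 CPM in 6 HGFAC-KO mice, and on HF/HS at 270.4 ± 14.6 CPM and 91.8 ± 8.04 CPM in 7 mice each (mean ± SD), with no overlap between genotypes on either diet. The *Hgfac* level thus went against the label of no mouse. The samples are whole liver, in which fewer cells of a type and less RNA per cell cannot be told apart.

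All 9 genes lie on chromosome 5 of GRCm38 (GENCODE annotation). *Cyp3a13* (ENSMUSG00000029727, chr5:137892932-137921619, minus strand) stands by itself, and the others form 1 cluster. In order along the chromosome the cluster holds *Cyp3a57* (chr5:145345279-145390926), *Cyp3a16* (chr5:145436309-145469723), *Cyp3a41b* (chr5:145558664-145584730), *Cyp3a41a* (chr5:145694049-145720136), *Cyp3a44* (chr5:145773983-145805874), *Cyp3a11* (chr5:145854426-145879964), *Cyp3a25* (chr5:145977194-146009618) and *Cyp3a59* (chr5:146079257-146113287). *Cyp3a57* and *Cyp3a59* are on the plus strand and the other members of the cluster on the minus strand.

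The sequences just before the transcription start are shown because the members of the cluster were low together on HF/HS. Each is the stretch of 250 bases before the RefSeq start in GRCm38.p6, written 5′ to 3′ on the gene's own strand. Capitals mark the letters AGGTCA or AGTTCA, or their reverse complements TGACCT and TGAACT, which are the half-sites that nuclear receptors such as PXR and CAR are known to bind in pairs.
Cyp3a11 (chr5:145879855-145880104, minus strand): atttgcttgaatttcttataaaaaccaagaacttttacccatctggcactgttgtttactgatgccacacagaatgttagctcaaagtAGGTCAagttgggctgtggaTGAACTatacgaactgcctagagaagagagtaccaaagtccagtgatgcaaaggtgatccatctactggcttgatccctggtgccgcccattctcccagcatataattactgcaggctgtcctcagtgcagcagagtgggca
Cyp3a44 (chr5:145805875-145806124, minus strand): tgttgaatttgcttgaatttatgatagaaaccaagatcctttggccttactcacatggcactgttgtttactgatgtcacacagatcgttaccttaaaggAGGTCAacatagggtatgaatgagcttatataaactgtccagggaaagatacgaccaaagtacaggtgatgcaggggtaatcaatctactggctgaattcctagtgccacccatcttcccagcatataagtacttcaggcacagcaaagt
Cyp3a41a (chr5:145720137-145720386, minus strand): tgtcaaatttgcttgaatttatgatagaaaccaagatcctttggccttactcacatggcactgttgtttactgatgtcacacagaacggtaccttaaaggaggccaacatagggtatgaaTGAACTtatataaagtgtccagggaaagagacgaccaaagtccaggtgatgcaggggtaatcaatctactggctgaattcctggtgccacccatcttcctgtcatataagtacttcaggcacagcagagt
Cyp3a25 (chr5:146009619-146009868, minus strand): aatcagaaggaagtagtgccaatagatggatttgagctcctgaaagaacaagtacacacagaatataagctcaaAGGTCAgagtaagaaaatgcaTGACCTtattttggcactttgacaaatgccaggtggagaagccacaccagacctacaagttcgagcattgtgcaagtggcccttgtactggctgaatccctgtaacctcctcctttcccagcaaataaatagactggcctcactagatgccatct
Cyp3a59 (chr5:146079008-146079257, plus strand): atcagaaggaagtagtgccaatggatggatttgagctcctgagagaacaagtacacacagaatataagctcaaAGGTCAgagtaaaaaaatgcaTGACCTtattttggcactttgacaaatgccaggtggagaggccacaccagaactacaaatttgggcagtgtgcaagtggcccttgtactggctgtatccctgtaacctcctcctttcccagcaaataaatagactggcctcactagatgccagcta
Cyp3a13 (chr5:137921620-137921869, minus strand): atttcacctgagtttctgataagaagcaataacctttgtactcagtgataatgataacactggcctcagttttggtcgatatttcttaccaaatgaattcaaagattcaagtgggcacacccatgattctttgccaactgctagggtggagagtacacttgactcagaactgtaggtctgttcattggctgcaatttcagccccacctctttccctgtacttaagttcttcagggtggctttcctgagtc

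*Cyp3a25* and *Cyp3a59* were 94.8% identical over these stretches and both held AGGTCA and, further on, TGACCT, at positions -176 and -155 and at -177 and -156 before the start. *Cyp3a41a* and *Cyp3a41b* were 99.6% identical there and each held TGAACT at -130. *Cyp3a44* was 94.4% identical to *Cyp3a41a* and held AGGTCA at -150 instead. *Cyp3a11* was 72.9% identical to *Cyp3a41a* and held AGGTCA at -162 and TGAACT at -142. *Cyp3a16* and *Cyp3a13* held neither motif in this window, although *Cyp3a16* was 91.3% identical to *Cyp3a41a*. Over the same window of all 27025 RefSeq promoters, AGGTCA or its complement was found in 13.8% and AGTTCA or its complement in 11.9%. AGGTCA was added after these sequences were seen, and the spacing of half-sites was not compared with that of known sites. A match is a description of the letters and not evidence of binding.

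Near-identical copies limit what counts of single members mean. *Cyp3a41a* and *Cyp3a41b* had the same base at 1510 of 1512 coding positions (99.9%), and 98.6% of the 50-base windows of the *Cyp3a41a* transcript were found in another gene. Only 28 windows of *Cyp3a41a* and 131 of *Cyp3a41b* were their own, so how reads were split between these 2 genes rests on the authors' counting, whose handling of reads with several matches is not given in the sources used here. A window stands for a single read, while the paper sequenced pairs of 50-base reads. The share of read pairs that cannot be placed may therefore be lower than that of windows. *Cyp3a25* and *Cyp3a59* were 97.5% identical in coding sequence and shared 537 windows. *Cyp3a11* shared between 103 and 145 windows with each of *Cyp3a16*, *Cyp3a41a*, *Cyp3a41b* and *Cyp3a44*. *Cyp3a13* shared no window with any gene and was at most 77.3% identical to another member.

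*Cyp3a11* carried most of the family's counts. In controls it ran from 4266 to 5807 CPM (median 5234) on chow and from 327 to 731 CPM (median 466) on HF/HS. In HGFAC-KO mice it ran from 4179 to 6782 CPM (median 5199) on chow and from 490 to 965 CPM (median 596) on HF/HS. Every mouse on HF/HS was far below every mouse on chow, whatever the genotype. The log2 fold change was -3.24 (standard error 0.19) in controls, a level 9.43 times lower, and -3.06 (standard error 0.16) in HGFAC-KO mice, a level 8.36 times lower.

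*Cyp3a25*, the member with the next highest level, was lower by a smaller factor. Its level ran from 487 to 571 CPM (median 545) in controls on chow and from 154 to 280 CPM (median 195) in controls on HF/HS. In HGFAC-KO mice it ran from 410 to 666 CPM (median 518) on chow and from 135 to 323 CPM (median 228) on HF/HS. The diets did not overlap in either genotype, and the log2 fold changes were -1.42 (standard error 0.10) and -1.30 (standard error 0.17), or levels 2.67 and 2.46 times lower.

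*Cyp3a59*, which is close to *Cyp3a25* in sequence, was lower by a larger factor than it. It ran from 31.1 to 48.2 CPM (median 35.1) in controls on chow and from 3.67 to 5.15 CPM (median 4.42) in controls on HF/HS. In HGFAC-KO mice it ran from 24.6 to 49.2 CPM (median 35.0) on chow and from 3.39 to 8.45 CPM (median 5.08) on HF/HS. Again no mouse on HF/HS reached the lowest mouse on chow. The log2 fold changes were -3.09 (standard error 0.12) and -2.76 (standard error 0.20). For each 100 CPM of *Cyp3a25* there was a median of 6.88 CPM of *Cyp3a59* in controls on chow and of 2.12 CPM on HF/HS, with ranges of 5.65 to 8.84 and 1.80 to 3.05 that did not overlap. The same ratio was 6.93 and 2.45 in HGFAC-KO mice.

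*Cyp3a13*, the member outside the cluster, kept most of its level. It ran from 143 to 183 CPM (median 162) in controls on chow and from 117 to 159 CPM (median 136) in controls on HF/HS. In HGFAC-KO mice it ran from 131 to 206 CPM (median 166) on chow and from 122 to 186 CPM (median 143) on HF/HS. The diets overlapped in both genotypes, and the log2 fold change was -0.21 in each (standard errors 0.07 and 0.11). Without replicate 7 of the controls on HF/HS it was -0.25 in controls.

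**Figure D1:**
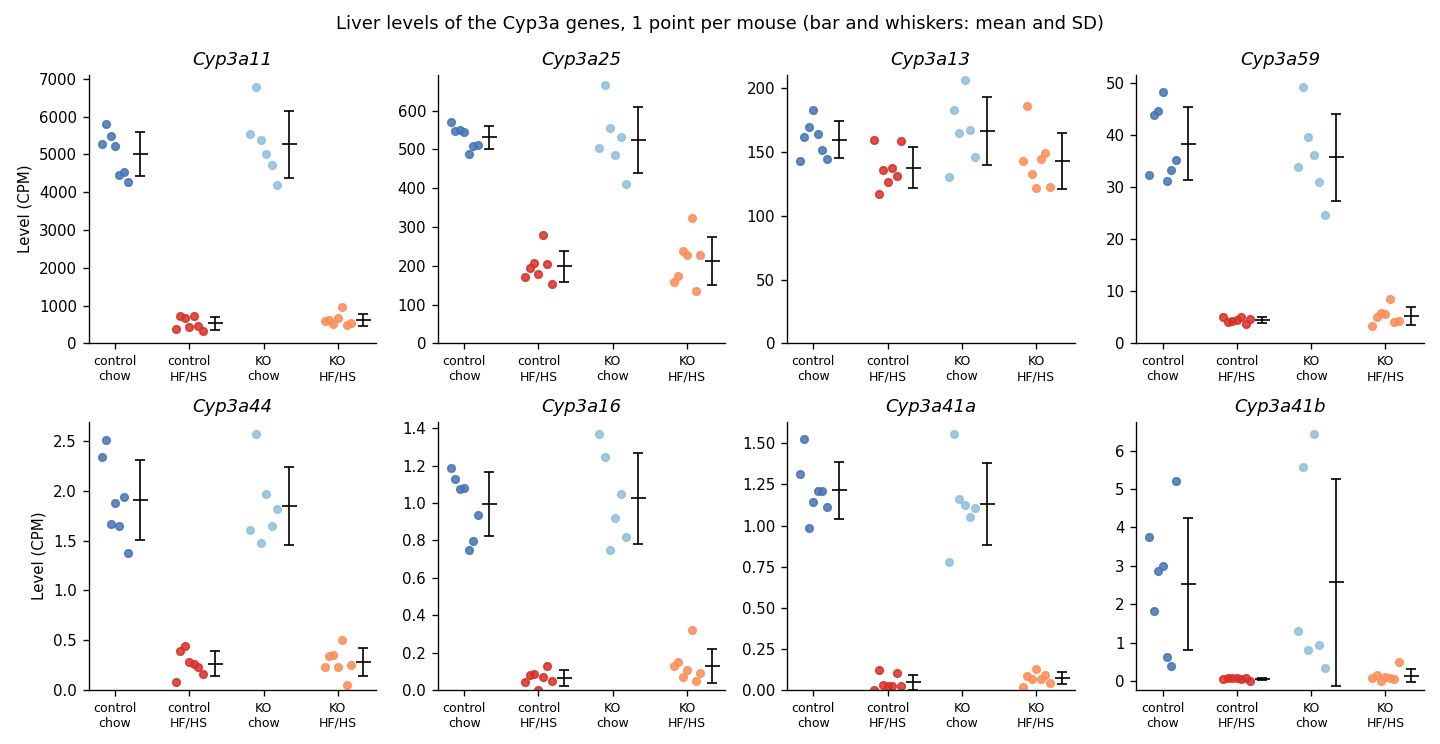
Level (CPM, linear axes) of the 8 Cyp3a genes in each mouse, by genotype and diet, with the mean and SD of each group beside the points. On HF/HS *Cyp3a11* stayed between 327 and 965 CPM against 4179 to 6782 CPM on chow, while the *Cyp3a13* points of the diets overlap.

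The other 4 genes were at a low level on chow and close to 0 on HF/HS. *Cyp3a44* was between 1.37 and 2.51 CPM (median 1.88) in chow-fed controls and between 1.47 and 2.57 CPM (median 1.73) in chow-fed HGFAC-KO mice. On HF/HS it ran from 0.0827 to 0.439 CPM (median 0.260) and from 0.0474 to 0.505 CPM (median 0.250). The diets did not overlap in either genotype, and the log2 fold changes were -2.85 (standard error 0.25) and -2.70 (standard error 0.29).

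*Cyp3a16* was between 0.747 and 1.19 CPM (median 1.07) in chow-fed controls and between 0.748 and 1.37 CPM (median 0.984) in chow-fed HGFAC-KO mice. On HF/HS it ran from 0 to 0.130 CPM (median 0.0710) and from 0.0474 to 0.322 CPM (median 0.109). These levels rest on few reads, with 322 counts over the 7 controls on chow and 19 over the 7 on HF/HS, and 258 and 42 counts in HGFAC-KO mice. The diets did not overlap, and the log2 fold changes were -3.87 (standard error 0.28) and -2.94 (standard error 0.31).

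*Cyp3a41a* was between 0.983 and 1.52 CPM (median 1.21) in chow-fed controls and between 0.781 and 1.55 CPM (median 1.12) in chow-fed HGFAC-KO mice. On HF/HS it ran from 0 to 0.123 CPM (median 0.0261) and from 0.0213 to 0.127 CPM (median 0.0707), or 14 and 24 counts in all. No HF/HS mouse reached a chow mouse, and the log2 fold changes were -4.58 (standard error 0.33) and -3.87 (standard error 0.27).

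*Cyp3a41b* varied among mice on chow far more than its near-identical copy. It was between 0.410 and 5.22 CPM (median 2.88) in chow-fed controls and between 0.354 and 6.43 CPM (median 1.13) in chow-fed HGFAC-KO mice, where *Cyp3a41a* stayed under 1.56 CPM. On HF/HS it ran from 0 to 0.0878 CPM (median 0.0781) and from 0 to 0.499 CPM (median 0.0919). The diets overlapped in HGFAC-KO mice, because replicate 7 on HF/HS was above the lowest mouse on chow. The log2 fold changes were -5.23 (standard error 0.65) and -4.12 (standard error 0.80), and the latter was -4.84 without replicate 7 of the HGFAC-KO mice on HF/HS. With the counts of both copies summed, the log2 fold changes were -5.02 in controls and -4.06 in HGFAC-KO mice.

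Scaled to merged exon length, the mean levels in controls on chow were 983 ± 115 CPM per kb for *Cyp3a11*, 255 ± 14.2 for *Cyp3a25*, 54.0 ± 4.86 for *Cyp3a13* and 19.1 ± 3.48 for *Cyp3a59* (SD, n = 7 each). They were 1.23 ± 0.831 CPM per kb for *Cyp3a41b*, 0.972 ± 0.203 for *Cyp3a44*, 0.589 ± 0.0827 for *Cyp3a41a* and 0.574 ± 0.0984 for *Cyp3a16* (SD, n = 7 each). The first 4 genes were separated by more than their spread. *Cyp3a41b* and *Cyp3a44* did not differ beyond their spread, nor did *Cyp3a41a* and *Cyp3a16*. The annotation of *Cyp3a11* includes a long transcript with a retained intron, so its merged exons of 5093 bases understate its level beside a coding length of 1512 bases.

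The 9 rows together gave 4965 to 6569 CPM in chow-fed controls and 4764 to 7691 CPM in chow-fed HGFAC-KO mice. The same sums on HF/HS were 645 to 1154 CPM and 778 to 1442 CPM. As a share of all P450 counts, the family had a median of 18.6% in controls and 19.7% in HGFAC-KO mice on chow, and of 3.29% and 4.47% on HF/HS. *Cyp3a11* made up a median of 87.0% of the family in controls on chow and 57.9% on HF/HS, while *Cyp3a13* went from 2.90% to 16.3% and *Cyp3a25* from 9.47% to 24.2%. The 92 P450 genes of other families summed to between 22094 and 27626 CPM in controls on chow and to between 20740 and 24981 CPM on HF/HS, which overlap.

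The diet contrast picked the members, so its calls only restate that choice. With edgeR and an adjusted threshold of 0.05, 7 of the 8 members were lower on HF/HS in each genotype, the exception being *Cyp3a13*, where 5.60% of 13525 genes were called lower in controls and 2.73% of 13613 in HGFAC-KO mice, and nothing is read from this count. *Cyp3a16*, *Cyp3a41a* and *Cyp3a41b* passed the filter on low counts only through the mice on chow.

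**Figure D2:**
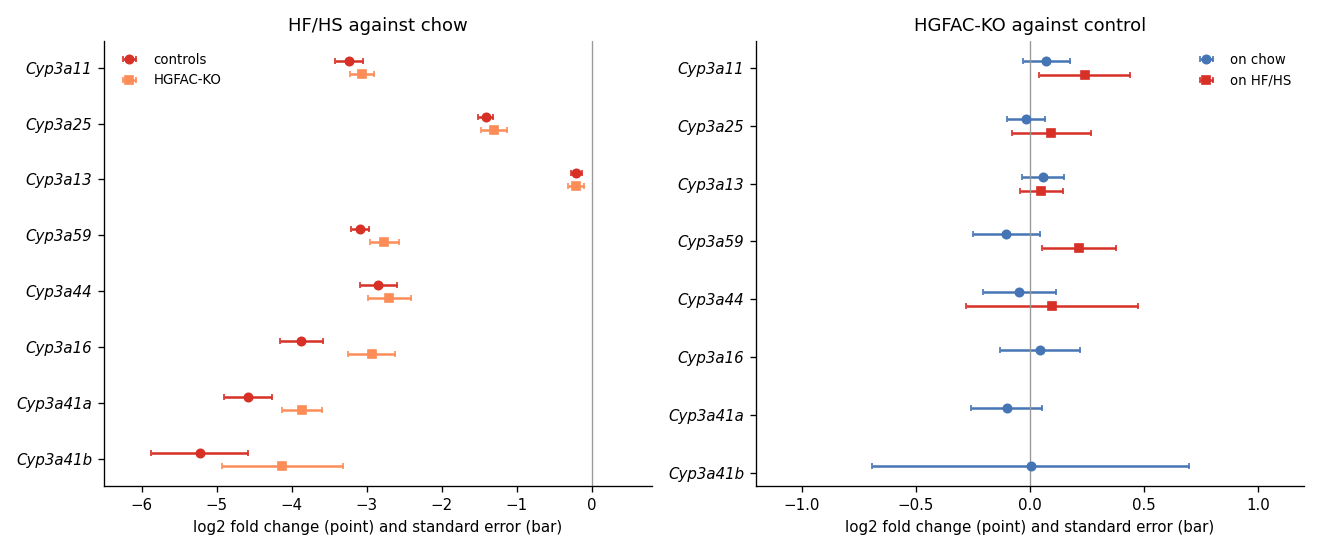
Log2 fold change (points) with standard error (bars) of each Cyp3a gene, for HF/HS against chow on the left and for HGFAC-KO against control on the right. Diet values of 7 genes lie between -5.23 and -1.30 and those of *Cyp3a13* at -0.21, while all tested genotype values lie between -0.10 and 0.24. *Cyp3a16*, *Cyp3a41a* and *Cyp3a41b* were not tested between genotypes on HF/HS.

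Genotype was the comparison that the choice of members did not use. On chow all 8 members passed the filter, and none was called between HGFAC-KO and control mice. Their log2 fold changes ran from -0.10 to 0.07, and the adjusted p-values of edgeR's quasi-likelihood test ran from 0.895 to 0.999. None of the 8 had an unadjusted p under 0.05, and none was called by DESeq2 or limma voom. For comparison, 0.00737% of 13571 genes were called on chow by edgeR, which is 1 gene, *Hgfac*, while DESeq2 called 13. *Cyp3a11* was 0.07 higher in HGFAC-KO mice (standard error 0.10) and *Cyp3a25* 0.02 lower (log2 fold change -0.018, standard error 0.08), so these 2 genes were measured with a small error. For *Cyp3a41b* the standard error was 0.69, and differences of that size between genotypes were not detectable.

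On HF/HS 5 members passed the filter and none was called, with edgeR adjusted p-values from 0.700 to 0.958, and DESeq2 and limma voom called none either. Over all genes 0.0148% of 13544 were called, which is 2 genes. DESeq2 called 55, and edgeR without replicate 5 of the HGFAC-KO mice on HF/HS called 11. All 5 estimates were above 0, at 0.24 for *Cyp3a11* (standard error 0.20), 0.22 for *Cyp3a59* (standard error 0.16), 0.10 for *Cyp3a44* (standard error 0.38), 0.09 for *Cyp3a25* (standard error 0.17) and 0.05 for *Cyp3a13* (standard error 0.09), and each was within 2 standard errors of 0. Without replicate 5 of the HGFAC-KO mice on HF/HS, the estimates were 0.11 for *Cyp3a11*, 0.062 for *Cyp3a59* and -0.035 for *Cyp3a25*. *Cyp3a16*, *Cyp3a41a* and *Cyp3a41b* were too low for the fit by themselves. Summed with *Cyp3a44* into 1 gene they could be fitted, at 0.51, and were not called. A two-sided exact permutation test on their log2 CPM over 3432 splits gave p = 0.0775, 0.172 and 0.349, with differences of 0.64, 0.45 and 0.46 towards a higher level in HGFAC-KO mice. Of the 42 *Cyp3a16* counts in HGFAC-KO mice on HF/HS 14 were in replicate 5, and of the 46 *Cyp3a41b* counts 22 were in replicate 7. The 7 controls on HF/HS had 19 counts of each of these genes. Over the 8 members the exact p-values ran from 0.431 to 0.854 on chow (1716 splits) and from 0.0775 to 0.944 on HF/HS, 16 tests in all, of which none was under 0.05.

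The interaction asks whether the diet difference depended on genotype. It is built from the diet values by which the members were chosen, so the choice may bear on its estimates. No member was called among 8 tested, none had an unadjusted p under 0.05 with edgeR, and DESeq2 and limma voom called none. Over all 13932 genes 0% were called and 506 had an unadjusted p under 0.05. The largest estimates among members were those of the low genes, 1.10 for *Cyp3a41b* (standard error 1.25), 0.94 for *Cyp3a16* (standard error 0.47, unadjusted p = 0.0551, edgeR adjusted p = 0.983) and 0.72 for *Cyp3a41a* (standard error 0.50). A positive value is a smaller fall on HF/HS in HGFAC-KO mice. These 3 genes passed the filter only through the mice on chow and had few counts on HF/HS, so nothing is read from their estimates. For *Cyp3a11* the estimate was 0.17 (standard error 0.24) and for *Cyp3a13* -0.0033 (standard error 0.14). Without replicate 5 of the HGFAC-KO mice on HF/HS the estimate was 0.040 for *Cyp3a11* and 0.57 for *Cyp3a16*, and without replicate 7 of that group it was 0.38 for *Cyp3a41b*.

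Counts of the low genes were also read against those of *Cyp3a11*, with which they share windows. For each 100000 counts of *Cyp3a11*, *Cyp3a16* had a median of 19.6 counts (range 16.8 to 22.6) in controls on chow and 11.5 (range 0 to 27.9) on HF/HS. In HGFAC-KO mice it had 19.0 (range 13.9 to 24.7) and 16.5 (range 9.67 to 33.3). *Cyp3a44* had 37.0 (range 30.5 to 44.3) and 50.7 (range 22.1 to 68.1) in controls, and *Cyp3a59* had 755 (range 612 to 920) and 788 (range 580 to 1434). *Cyp3a59* shares no window with *Cyp3a11*. *Cyp3a41a* had 26.1 (range 17.9 to 27.1) on chow and 6.19 (range 0 to 22.4) on HF/HS in controls, and *Cyp3a41b* had 52.6 (range 9.05 to 122) and 13.02 (range 0 to 18.6). In controls the ranges of the diets overlapped for all 5 genes, and the medians of *Cyp3a16*, *Cyp3a41a* and *Cyp3a41b* were lower on HF/HS. How many counts of the low genes come from reads of *Cyp3a11* was not tested.

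**Figure D3:**
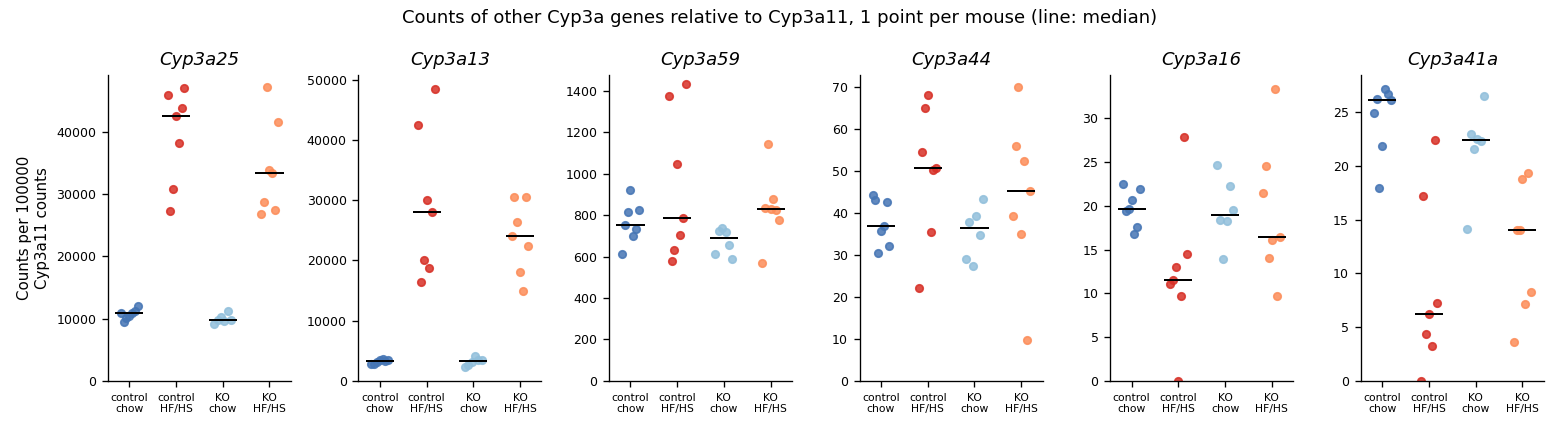
Counts of 6 Cyp3a genes for each 100000 counts of *Cyp3a11* in the same mouse (linear axes, 1 point per mouse, line at the median). The medians of *Cyp3a59* lie between 688 and 830 in the 4 groups, and in controls that of *Cyp3a16* is 19.6 on chow and 11.5 on HF/HS, while *Cyp3a25* and *Cyp3a13* are higher on HF/HS, having been lowered less than *Cyp3a11*.

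Within groups the members varied together to different degrees. After each group mean was subtracted, the Pearson correlation of log2 CPM over 27 mice was 0.72 between *Cyp3a11* and *Cyp3a25*, 0.65 between *Cyp3a11* and *Cyp3a16*, 0.65 between *Cyp3a11* and *Cyp3a44*, and 0.67 between *Cyp3a25* and *Cyp3a59*. It was -0.13 between *Cyp3a11* and *Cyp3a13* and 0.064 between *Cyp3a41a* and *Cyp3a41b*. These values describe mice that share library and scaling and carry no test. Outside the family, of 9453 genes with a mean of at least 5 CPM, those most like *Cyp3a11* within groups were *Ptms* (r = 0.84), *Ybx1* (r = 0.84) and *Aadac* (r = 0.84). For *Cyp3a25* they were *Sqor* (r = 0.92), *Mettl7a1* (r = 0.87) and *Pipox* (r = 0.86), and for *Cyp3a59* the PXR gene *Nr1i2* (r = 0.81), *Pgrmc1* (r = 0.79), whose product binds P450 enzymes, and *Aldh4a1* (r = 0.76). For *Cyp3a13* they were *Rasa3* (r = 0.81), *Spata2* (r = 0.80) and *Saa4* (r = 0.79), for *Cyp3a44* *Car5a* (r = 0.79), *Wdr83os* (r = 0.79) and *Ybx1* (r = 0.77), and for *Cyp3a16* *Mthfs* (r = 0.77), *Vrk3* (r = 0.76) and *Atp5c1* (r = 0.75). *Cyp3a41a* (*Ctnnbl1*, r = 0.62, *Rreb1*, r = 0.59, *Fzd7*, r = 0.58) and *Cyp3a41b* (*Lmbr1l*, r = 0.72, *Cops7b*, r = 0.69, *Oaf*, r = 0.67) had weaker likenesses, in sparse counts. All these genes were picked by their likeness in these same mice. When group means were not subtracted, r with *Cyp3a59* over the 27 mice was -0.088 for *Nr1i2*, 0.96 for *Pgrmc1* and 0.16 for *Aldh4a1*.

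Of 29 other genes within 500 kb of the cluster, 15 passed the filter. In controls 1 was called higher on HF/HS, against 4.93% of all genes, and 0 lower, against 5.60%. In HGFAC-KO mice 0 of the 15 were called in either direction, against 3.17% higher and 2.73% lower over all genes. With 15 genes these counts are near the shares of all genes. The gene called in controls was *Smurf1*, a ubiquitin ligase, at 0.36 (standard error 0.08, adjusted p = 0.0112 from edgeR), and *Zfp655* (0.20, adjusted p = 0.0985) and *Arpc1a* (0.11, adjusted p = 0.110) came next. The median log2 fold change of the 15 was 0.017. Of the 28 genes tested within 500 kb of *Cyp3a13* in controls, 1 was called lower, against 5.60% of all genes, and 0 higher. It was *Zfp113*, at -0.58 on the log2 scale (standard error 0.08, edgeR adjusted p = 3.48e-04), which was at -0.13 in HGFAC-KO mice (adjusted p = 0.642). In HGFAC-KO mice 2 of 29 were called higher, against 3.17% of all genes, and 0 lower. They were *Nyap1* (1.06) and *Pilra* (0.50), named after their values were seen.

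**Figure D4:**
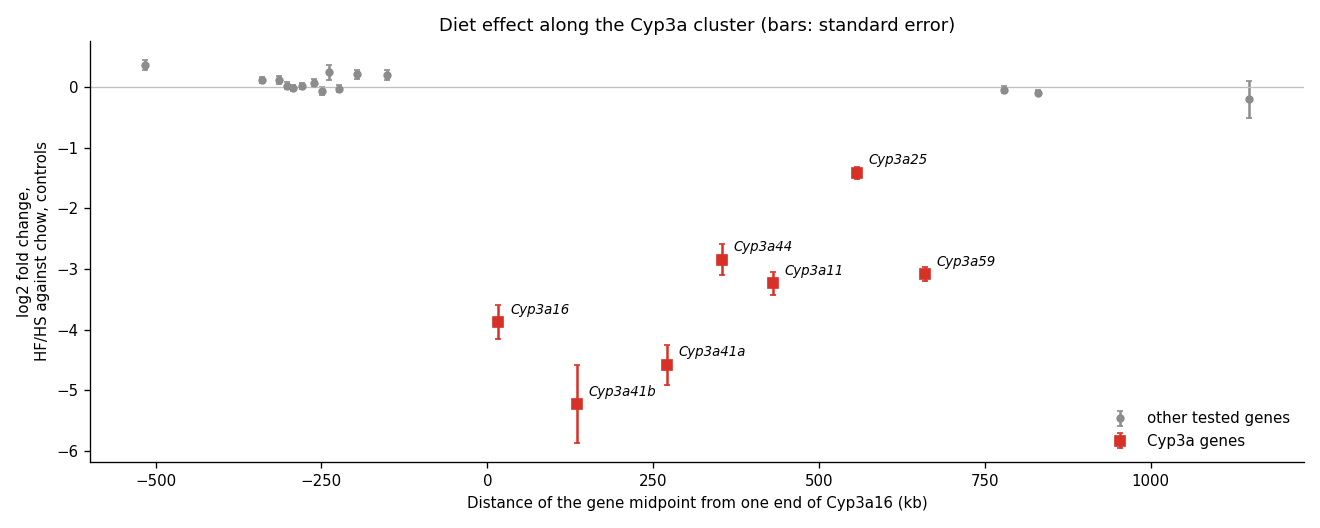
Log2 fold change for HF/HS against chow in controls (points, with standard error) along the cluster, against distance of each gene's midpoint from one end of *Cyp3a16* in kb. The 7 Cyp3a genes lie between -5.23 and -1.42, and the 15 other tested genes lie near 0, up to 0.36 for *Smurf1*.

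P450 genes of other families were called in both directions. Of 92 genes 68 were tested in controls, of which 19 were called lower and 3 higher on HF/HS, against 5.60% and 4.93% of all genes, so that the share called higher was near that of all genes. The median log2 fold change was -0.11. In HGFAC-KO mice 11 of 69 were called lower and 4 higher, against 2.73% and 3.17% of all genes. The 5 with the smallest p in controls by edgeR's test were *Cyp2c55* (log2 fold change -2.63, adjusted p = 1.97e-07), *Cyp2d40* (0.92, adjusted p = 1.80e-06), *Cyp2a5* (-2.51, adjusted p = 6.81e-06), *Cyp2b10* (-7.56, adjusted p = 7.62e-06) and the pseudogene *Cyp2c53-ps* (-2.02, adjusted p = 8.21e-06). *Cyp2b10*, the classic CAR target, went from 7.01 ± 4.80 CPM to 0.0363 ± 0.0291 CPM (SD, n = 7 each). It passed the filter only through the mice on chow, and no mouse on HF/HS was above 0.0710 CPM, so its fold change rests on very few counts and is imprecise. The other P450 genes at a like level in controls on chow, named after their values were seen, were *Cyp2e1* at 5656 CPM and a log2 fold change of 0.28 and *Cyp4a14* at 4817 CPM and -0.32, neither of which was called, beside -3.24 for *Cyp3a11*.

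**Figure D5:**
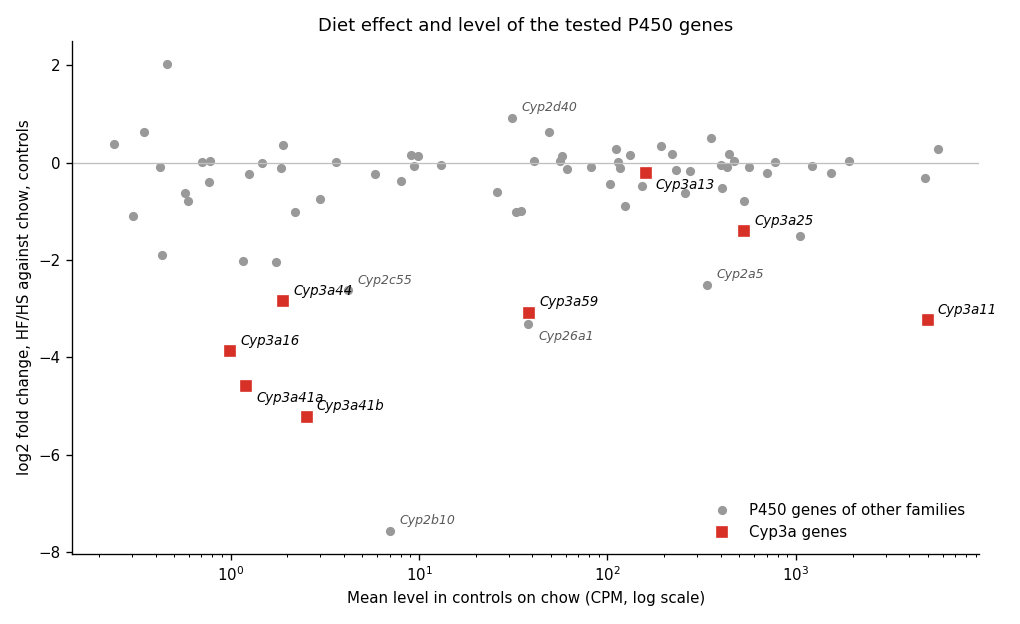
Log2 fold change for HF/HS against chow in controls against the mean level in controls on chow (CPM, log scale) for the 8 Cyp3a genes and 68 tested P450 genes of other families. *Cyp3a11* lies at 5007 CPM and -3.24, and *Cyp2b10*, which had few counts on HF/HS, is the lowest point at -7.56.

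Of 26 tested genes in a list of others known to respond to CAR and PXR, 21 were called lower and 0 higher in controls, and 15 and 0 in HGFAC-KO mice. Among the mice on HF/HS alone 24 genes of the list passed the filter, so some of the 26 passed it through the mice on chow. For those genes the filter itself favored a lower call. Over all genes 5.60% were called lower in controls and 2.73% in HGFAC-KO mice. The median log2 fold changes of the list were -1.11 and -1.13, beside 0.0036 and 0.0037 over all genes. DESeq2 and limma voom each called 22 lower and 0 higher in controls. The list was written with earlier results of these data known, and 9 of its 26 tested genes are P450 genes of other families, of which 6 are among the 19 called lower in controls above. *Ces2a*, a carboxylesterase of drug metabolism, went from 333 to 128 CPM in controls (log2 fold change -1.37, edgeR adjusted p = 3.77e-08) and in HGFAC-KO mice went from 335 to 115 CPM (-1.53). *Ugt1a9*, a glucuronosyltransferase, was lower by -2.14 in controls and -1.37 in HGFAC-KO mice. No gene of the list was called for genotype on either diet or for the interaction.

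In controls the genes of the receptors themselves were not lower on HF/HS past the threshold. Their values in HGFAC-KO mice are not given here. *Nr1i2* (PXR) was at 54.9 ± 5.84 CPM on chow and 61.0 ± 7.01 CPM on HF/HS in controls (SD, n = 7 each), a log2 fold change of 0.16 (edgeR adjusted p = 0.237). *Nr1i3* (CAR), named after its values were seen, was at 159 ± 28.9 and 146 ± 33.0 CPM (SD, n = 7 each), a log2 fold change of -0.12 (edgeR adjusted p = 0.654). Of 26 tested transcription factors of Cyp3a genes, 2 were called higher and 0 lower in controls, and 0 higher and 1 lower in HGFAC-KO mice. Over all genes 4.93% were called higher in controls and 2.73% lower in HGFAC-KO mice, so these shares were near those of all genes. The 2 were *Ppara*, a lipid-sensing receptor (0.42, edgeR adjusted p = 0.0162), and *Dbp*, a clock output factor (1.47, adjusted p = 0.0284), and *Tef*, its relative, was at 0.43 (adjusted p = 0.0606). The 1 called lower in HGFAC-KO mice, named after its values were seen, was *Foxa2* (-0.29, edgeR adjusted p = 0.0329).

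Of 17 genes for redox partners and heme metabolism, 5 were called lower and 1 higher in controls, against 5.60% and 4.93% of all genes, and 5 and 0 in HGFAC-KO mice, against 2.73% and 3.17%. *Por*, the reductase that feeds P450 enzymes, went from 323 to 230 CPM in controls (log2 fold change -0.49, edgeR adjusted p = 8.83e-04) and was -0.67 in HGFAC-KO mice. *Pgrmc1* was -0.46 in controls (adjusted p = 8.79e-06) and -0.44 in HGFAC-KO mice, and *Blvrb*, a biliverdin reductase, was -0.47 (adjusted p = 0.00866). These values lie between that of *Cyp3a13* and those of the other 7 members.

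Sex-biased liver genes were called in both directions, where all genes gave 5.60% lower and 4.93% higher in controls and 2.73% and 3.17% in HGFAC-KO mice. Of 11 tested female-biased genes 3 were called lower and 1 higher in controls, with *Fmo2* at -0.67, *Cyp2a22* at -0.76 and *Fmo1* at -0.24 (adjusted p = 0.0106, 0.0125 and 0.0404 by edgeR). In HGFAC-KO mice 1 of 12 was called lower and 1 higher. Of 19 male-biased genes 7 were called higher and 4 lower in controls, and 3 and 2 in HGFAC-KO mice, with *Hsd3b5* at 1.34, *Nudt7* at 0.71 and *Cyp4a12a* at -0.62 in controls (adjusted p = 2.58e-05, 6.63e-04 and 0.00114 by edgeR).

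Markers of hepatocyte zones, inflammation and other cells were read beside the family, and their part in its levels was not tested. The share of all genes called on HF/HS was 5.60% lower and 4.93% higher in controls, and 2.73% lower and 3.17% higher in HGFAC-KO mice. Of 15 periportal markers 7 were called lower and 1 higher in controls and 3 lower and 0 higher in HGFAC-KO mice, with medians of -0.35 and -0.34. Of 15 pericentral markers 2 were called higher and 2 lower in controls, and 0 higher and 2 lower in HGFAC-KO mice. The 9 hepatocyte markers in the table summed to between 91273 and 105590 CPM in controls on chow and to between 90856 and 114210 CPM on HF/HS, so these ranges overlapped. Of 19 acute-phase genes 1 was called higher in controls, near the share of all genes, and 3 in HGFAC-KO mice, and 0 were called lower in either. Their sum was highest in replicate 7 of the controls on HF/HS, at 42621 CPM against a group median of 19699 CPM, and the same mouse had the lowest *Cyp3a11* of all, 327 CPM. In the other 3 groups the mouse with the highest sum did not have the lowest *Cyp3a11*, with 5478 CPM in controls on chow, 5018 CPM in HGFAC-KO mice on chow and 609.6 CPM in HGFAC-KO mice on HF/HS. Without that mouse the *Cyp3a11* log2 fold change in controls was -3.15.

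Kupffer cell and leukocyte markers summed to between 201 and 391 CPM in controls on chow and to between 252 and 511 CPM on HF/HS, in HGFAC-KO mice to between 194 and 291 CPM and to between 277 and 428 CPM, and 1 of 15 was called higher in controls and 7 in HGFAC-KO mice. Stellate cell markers (215 to 308 CPM on chow and 250.3 to 319 CPM on HF/HS in controls), endothelial markers (247 to 384 and 288 to 447 CPM) and cholangiocyte markers (36.0 to 71.8 and 36.7 to 61.4 CPM) overlapped between diets, and none of these lists had more than 1 gene called in either genotype. No gene of those lists was at 0 in every mouse of a group. Of 9 small intestine markers in the table, 3 were at 0 in every control on chow, among them *Sis* and *Krt20*, and *Fabp2* and *Tff3*, which liver can express, were called higher in controls at 0.71 and 2.93 (edgeR adjusted p = 8.08e-04 and 0.00206).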

How the data were processed

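Deposited values were counts per gene, which the authors made with HISAT2 alignment to GRCm38 (mm10) and featureCounts 1.6.3, without normalization. Stranded mRNA libraries of snap-frozen liver were read. The table had 27179 rows; 3886 named no gene and were left out of tests and library sizes, and 89 symbols on several rows were summed. Duplicate libraries were looked for within groups and none was found. Tests across genes used edgeR 4.0.16 under R 4.3.3, with TMM scaling, filterByExpr (minimum count 10, total 15), robust quasi-likelihood fit, Benjamini-Hochberg adjustment over all genes, threshold 0.05. Each contrast used only its own mice, and the interaction used all 27. CPM below 1 rest on few counts. Permutation tests used log2 CPM with a prior count of 2. Alternatives were DESeq2 1.42.0, limma 3.58.1 voom, other filters and scalings, a replicate block, summed paralogs and each mouse left out. Fits were tested on simulated data. Windows of 50 bases were compared between transcripts of the GENCODE annotation, and promoters are those of RefSeq. All 9 Cyp3a genes matched a RefSeq promoter.

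The members and the 14 gene lists were chosen with earlier results of these data known. Named genes were every Cyp3a row and *Hgfac*, of each list the 3 tested genes with the smallest p for diet in controls, the 5 other P450 genes with the smallest p, and for each member the 3 most correlated genes, while marker lists were given by their range and genes at 0. The motif AGGTCA was added after the promoter sequences were seen.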

Additional observations from a re-analysis of the deposited data

Results flagged for a closer look

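Single mice stood apart from their group in 6 of 32 gene and group combinations, by Dixon's test at the 95% level on CPM, which flags about 5% of groups by chance. Replicate 5 of the HGFAC-KO mice on HF/HS was the highest of its group for *Cyp3a11* at 965 CPM, where the next mouse was at 676 CPM, and for *Cyp3a16* at 0.322 CPM, which is 14 counts. Replicate 5 of the controls on HF/HS had the highest *Cyp3a25* of its group, 280.1 CPM against 207 CPM in the next. Replicate 2 of the HGFAC-KO mice on HF/HS had the highest *Cyp3a13*, 186 CPM against 149.6 CPM. *Cyp3a41b* was at 0 CPM in replicate 7 of the controls on HF/HS and at 0.499 CPM, or 22 counts, in replicate 7 of the HGFAC-KO mice on HF/HS. Why these mice stood apart was not tested.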

How the results depend on the processing

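Diet calls of members are a description, since that contrast chose them. No direction of a diet difference of a member changed under the alternatives run, and 379 of 384 of these values moved by less than 1 SD. With at least 10 counts required in every library, 3 members were called lower in controls and 3 in HGFAC-KO mice, since the low genes were then not tested. With *Cyp3a16*, *Cyp3a41a*, *Cyp3a41b* and *Cyp3a44* summed into 1 gene, 4 were called in each genotype. With each mouse left out in turn, 7 to 8 members were called in controls and 7 in HGFAC-KO mice, the 8 arising without replicate 7 of the controls on HF/HS. Members called between genotypes or in the interaction stayed at 0 under each alternative. Scaled to coding length, the levels in controls on chow were 3311 CPM per kb for *Cyp3a11*, 352 for *Cyp3a25*, 106 for *Cyp3a13*, 25.4 for *Cyp3a59*, 1.26 for *Cyp3a44* and 0.802 for *Cyp3a41a*.

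Of 608 genotype and interaction values 40 changed sign, all of genes that no setting called. On chow, summing the 4 genes gave -0.021 for *Cyp3a16* and *Cyp3a41b*, summing *Cyp3a41a* and *Cyp3a41b* gave -0.028 for *Cyp3a41b*, and limma voom gave -0.36 for *Cyp3a41b*. For the *Cyp3a13* interaction, limma voom gave 0.0023 and upper-quartile scaling 0.0046. Leaving out 1 mouse moved the chow genotype values from -0.0059 to 0.13 for *Cyp3a11*, -0.016 to 0.11 for *Cyp3a13*, -0.060 to 0.12 for *Cyp3a16*, -0.090 to 0.043 for *Cyp3a25*, -0.51 to 0.29 for *Cyp3a41b* and -0.16 to 0.029 for *Cyp3a44*. The chow genotype values ran from -0.21 to -0.020 for *Cyp3a41a* and from -0.21 to -0.016 for *Cyp3a59*. On HF/HS they ran from -0.026 to 0.088 for *Cyp3a13*, -0.035 to 0.20 for *Cyp3a25* and -0.10 to 0.27 for *Cyp3a44*, and for the interaction from -0.078 to 0.070 for *Cyp3a13*, -0.013 to 0.21 for *Cyp3a25*, -0.047 to 0.32 for *Cyp3a44*, 0.040 to 0.26 for *Cyp3a11*, 0.57 to 1.17 for *Cyp3a16*, 0.47 to 1.21 for *Cyp3a41a*, 0.38 to 1.61 for *Cyp3a41b* and 0.17 to 0.43 for *Cyp3a59*. Summing the 4 genes gave 0.51 on HF/HS and 0.54 for the interaction, where *Cyp3a44* by itself was at 0.10 and 0.15. The diet value of *Cyp3a41b* ran from -4.84 to -3.61 in HGFAC-KO mice with 1 mouse left out. The causes were not tested.

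The replicate numbers were not taken to pair the mice, since the labels tie them to no litter or batch and not every correlation of same-numbered mice was over 0.1. For diet 1 of 7 was in controls and 5 of 6 in HGFAC-KO mice, and for genotype 2 of 6 on chow and 4 of 7 on HF/HS. Mice correlated best with their own number in 0 of 7, 3 of 6, 1 of 6 and 1 of 7 pairs. A replicate block left 7 members called in each genotype, while over all genes it called 774 in place of 1424 in controls and 602 in place of 802 in HGFAC-KO mice, and DESeq2 called 1939 and 1401. With 1 mouse left out, 976 to 1780 genes were called in controls and 467 to 950 in HGFAC-KO mice. Of the list genes, 63 were called in controls and 45 in HGFAC-KO mice, and 54 to 77 and 37 to 67 under the alternatives. Depth limits the genes near 1 CPM, which had at most 22 counts in a mouse on HF/HS.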

Other observations

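*Cyp3a57*, the Cyp3a gene that enters the comparisons above only in the sums over the family, had between 4 and 11 counts in controls on chow, between 1 and 5 in controls on HF/HS, between 3 and 14 in HGFAC-KO mice on chow and between 2 and 6 in HGFAC-KO mice on HF/HS. Summed over mice these were 47 and 19 counts in controls and 47 and 29 in HGFAC-KO mice. The mean level was 0.146 ± 0.0563 CPM on chow and 0.0624 ± 0.0392 CPM on HF/HS in controls (SD, n = 7 each), and the ranges of the diets overlapped in both genotypes. A difference between diets was not tested for this gene.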
